A study of Mus musculus with 2 samples.

Results

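Proneural basic helix-loop-helix (bHLH) genes encode the transcription factors that commit neural progenitors to a neuronal fate, and the accessible chromatin around 8 of them was examined here: Neurog1, Neurog2, Neurod1, Neurod2, Neurod4, Neurod6, Olig2 and Bhlhe22. The genes were chosen from this family, with earlier results of these data known. A peak was counted at a gene when its summit lay in the gene body or within 50 kb of it on either side. By this rule 127 of the 117165 peaks of the control library and 129 of the 124935 peaks of the Ngn3-OE library belonged to the 8 loci. ATAC-seq, an assay that reads open DNA from the cuts of the Tn5 transposase, had been performed on late retinal progenitor cells (RPCs), which still divide in the mouse retina after birth. Plasmid DNA was electroporated into the retina in vivo at postnatal day 1, and cells carrying GFP from the electroporation were sorted on day 2 after electroporation, 50000 cells per library. By the study's Ki67 staining of retinas on that day, not all electroporated cells were still dividing. The dividing share was lower with Ngn3 overexpression than in control. The control group (Ctrl) had 1 library and the group overexpressing Neurog3 from a plasmid (Ngn3OE) had 1 library. Both groups shared the electroporation, the GFP label and the sort, and no strain or genotype is given in the sources used here. With 1 biological sample per group there is no replicate check and no test of the condition, so all differences below describe these 2 libraries.

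Factors of this family pair with E-proteins, bind the short DNA sites known as E-boxes and switch on neuronal genes. In the developing retina Neurog2, the only neurogenin the paper describes as expressed there, acts early, in progenitors about to leave the cell cycle. The NeuroD factors act later, in differentiating photoreceptors, amacrine cells and bipolar cells. Olig2 marks progenitors near their last division, Bhlhe22 is needed for subsets of amacrine and bipolar cells, and both are known mainly as repressors, although they share the bHLH domain with the activators.

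Accessibility is given as the number of tags piled up at the summit of a peak, a count recovered from the deposited peak values, with the exact 95% Poisson interval where it is shown. Ratios are Ngn3-OE over control on the log2 scale with the exact 95% binomial interval. All intervals cover counting error only. A shared peak, meaning an overlap of 1 bp or more with the other list, was called higher or lower when its tags differed by at least 1.5-fold and reached 10 in the higher library. In a mixed cell population a smaller share of cells with an open site and a weaker opening per cell cannot be told apart.

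The sequences of the 6 peaks whose counting interval lay clear of no difference are shown first, because these differences are the best resolved by their tags. They span 100 bases on each side of the summit, from the plus strand of mm10, 5′ to 3′. Capitals mark the E-box core CATCTG, the SOX site CCATTGT or CCTTTGT, and GGATTA, the core bound by OTX2 and CRX, each on either strand, so that a site on the minus strand appears as its reverse complement (CAGATG for CATCTG and TAATCC for GGATTA). Each of the 4 peaks that were higher in Ngn3-OE held GGATTA, at Neurog2 in 2 copies, and 2 of them, at Neurod1 and Neurod4, also held CATCTG. The motif GGATTA was included because of an earlier result on these libraries, and it was at 8 of all 14 called higher peaks of the 8 loci, beside 26.3% of all higher shared peaks.
Neurod1, 41.9 kb downstream (chr2:79414688-79414888): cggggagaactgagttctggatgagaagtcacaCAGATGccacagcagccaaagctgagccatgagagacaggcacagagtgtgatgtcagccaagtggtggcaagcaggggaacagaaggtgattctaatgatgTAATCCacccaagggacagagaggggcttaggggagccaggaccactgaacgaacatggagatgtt
Neurog2, 5.64 kb upstream (chr3:127627433-127627633): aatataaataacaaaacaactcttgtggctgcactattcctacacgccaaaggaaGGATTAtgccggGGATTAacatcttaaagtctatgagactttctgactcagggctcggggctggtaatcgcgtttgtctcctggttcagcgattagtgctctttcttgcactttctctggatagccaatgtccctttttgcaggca
Neurog1, 11.9 kb downstream (chr13:56240141-56240341): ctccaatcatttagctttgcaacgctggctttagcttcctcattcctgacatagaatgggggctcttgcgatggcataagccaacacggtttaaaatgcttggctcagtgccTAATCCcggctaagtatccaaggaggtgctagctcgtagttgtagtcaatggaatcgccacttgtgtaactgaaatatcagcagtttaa
Neurod4, 16.9 kb downstream (chr10:130263285-130263485): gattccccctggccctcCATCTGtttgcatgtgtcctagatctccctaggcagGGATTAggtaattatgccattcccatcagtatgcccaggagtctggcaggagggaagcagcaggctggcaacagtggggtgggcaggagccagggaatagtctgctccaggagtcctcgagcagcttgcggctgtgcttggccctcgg

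The 2 peaks that were lower in Ngn3-OE beyond their counting interval held no GGATTA. The one at Neurog2 had a SOX site and the one at Neurod1 had CATCTG.
Neurog2, 19.4 kb downstream (chr3:127652401-127652601): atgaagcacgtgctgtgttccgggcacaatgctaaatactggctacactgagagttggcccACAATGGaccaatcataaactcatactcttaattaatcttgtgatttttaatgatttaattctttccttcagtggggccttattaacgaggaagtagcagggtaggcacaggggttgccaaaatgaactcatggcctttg
Neurod1, 7.17 kb downstream (chr2:79449485-79449685): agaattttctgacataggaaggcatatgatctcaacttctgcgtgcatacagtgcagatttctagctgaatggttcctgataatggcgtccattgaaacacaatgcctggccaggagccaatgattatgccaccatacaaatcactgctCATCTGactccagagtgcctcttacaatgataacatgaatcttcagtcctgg

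At the gene starts, the Neurod2 promoter was the only own promoter called, and the Neurod1 promoter had the most tags of the 8 genes. The first is shown over 129 bases, up to the start of the transcript, and its CATCTG lies in the longer neurogenin E-box consensus. The second has a SOX site.
Neurod2 promoter (chr11:98329649-98329777): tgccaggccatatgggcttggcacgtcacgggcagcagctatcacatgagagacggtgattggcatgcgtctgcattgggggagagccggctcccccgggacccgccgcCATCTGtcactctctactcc
Neurod1 promoter (chr2:79456772-79456972): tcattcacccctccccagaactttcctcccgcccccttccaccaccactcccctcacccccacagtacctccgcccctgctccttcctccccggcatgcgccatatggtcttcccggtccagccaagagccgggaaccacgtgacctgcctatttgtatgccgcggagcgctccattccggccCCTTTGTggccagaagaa

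The labels were checked first. Neurog3, the overexpressed gene, had no called peak within 3 kb of its start in control and one of 1591 tags in Ngn3-OE, where DNA of the plasmid and of the chromosome cannot be told apart. All 9 progenitor markers examined, among them Rax and Fgf15, had a peak within 1 kb of a start in both libraries, and their tags summed to 474 in control and to 442 in Ngn3-OE. The 4 rod markers had peaks in both libraries, and their summed tags were 151 and 222. Those of 4 ganglion cell markers were 80 and 101. The sums of 3 bipolar markers were 17 and 25, and those of 3 amacrine and horizontal cell markers 55 and 50. Within the ganglion cell sum Pou4f2 had 9 and 21 tags and Rbpms 12 and 21. Isl1 had 36 and 38 and Atoh7 23 and 21. The bipolar sum rose mainly through Cabp5, with no called peak in control and 7 tags in Ngn3-OE. Vsx1 had 10 tags in both libraries and Grm6 had 7 and 8. Müller glia markers had a peak at 4 of 4 genes in control and 3 of 4 in Ngn3-OE, with a sum of 178 in both. Most of that sum was Glul, with 122 and 123 tags, while Aqp4 had 5 in control and no called peak in Ngn3-OE. No microglia marker of 4 had a peak in either library, and of 3 endothelial markers Cldn5 alone had one, with 6 and 10 tags, while the peak at Mitf was the only one among 3 pigment epithelium markers, Rpe65 and Tyr being without any. The part that the higher rod, ganglion cell and bipolar sums have in the values below was not tested. The lowest background used in peak calling was 0.261 tags in control and 0.257 in Ngn3-OE, which would mean near-equal depth only if tags were extended alike in both, and that length is not given in the sources used here.

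Most of the open regions around the 8 genes were present in both libraries. Of the control peaks 85.0% were shared (95% Wilson interval 77.8 to 90.2), against 78.3% of all control peaks, and of the Ngn3-OE peaks 83.7% were shared (76.4 to 89.1), against 73.4% of all. Control-only peaks numbered 19 of 127, or 14.96% (9.79 to 22.2), beside 21.7% of the whole control list. Ngn3-OE-only peaks numbered 21 of 129, or 16.3% (10.9 to 23.6), beside 26.6% of the whole Ngn3-OE list. The peaks at these loci were taller than the usual peak, the median being 13 tags in control, and 12 in Ngn3-OE, against 9 in both complete lists. Shared peaks at the 8 loci had a median of 14 and 15 tags and one-library peaks a median of 7 and 6. Of the peaks with a −log10 q of at least 5, 5 of 87 in control and 2 of 91 in Ngn3-OE lacked a counterpart, beside 7.89% and 10.3% in the whole lists.

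The summits of 106 of the 108 shared pairs lay within 100 bp of each other, with a median distance of 16 bp. Taking both libraries together there were 148 separate regions, of which 20 lay within 3 kb of a start of the gene itself, 1 in its body, 19 within 3 kb of the start of another gene and 108 elsewhere. The plot of tags along each window shows where they fall.

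**Figure D1:**
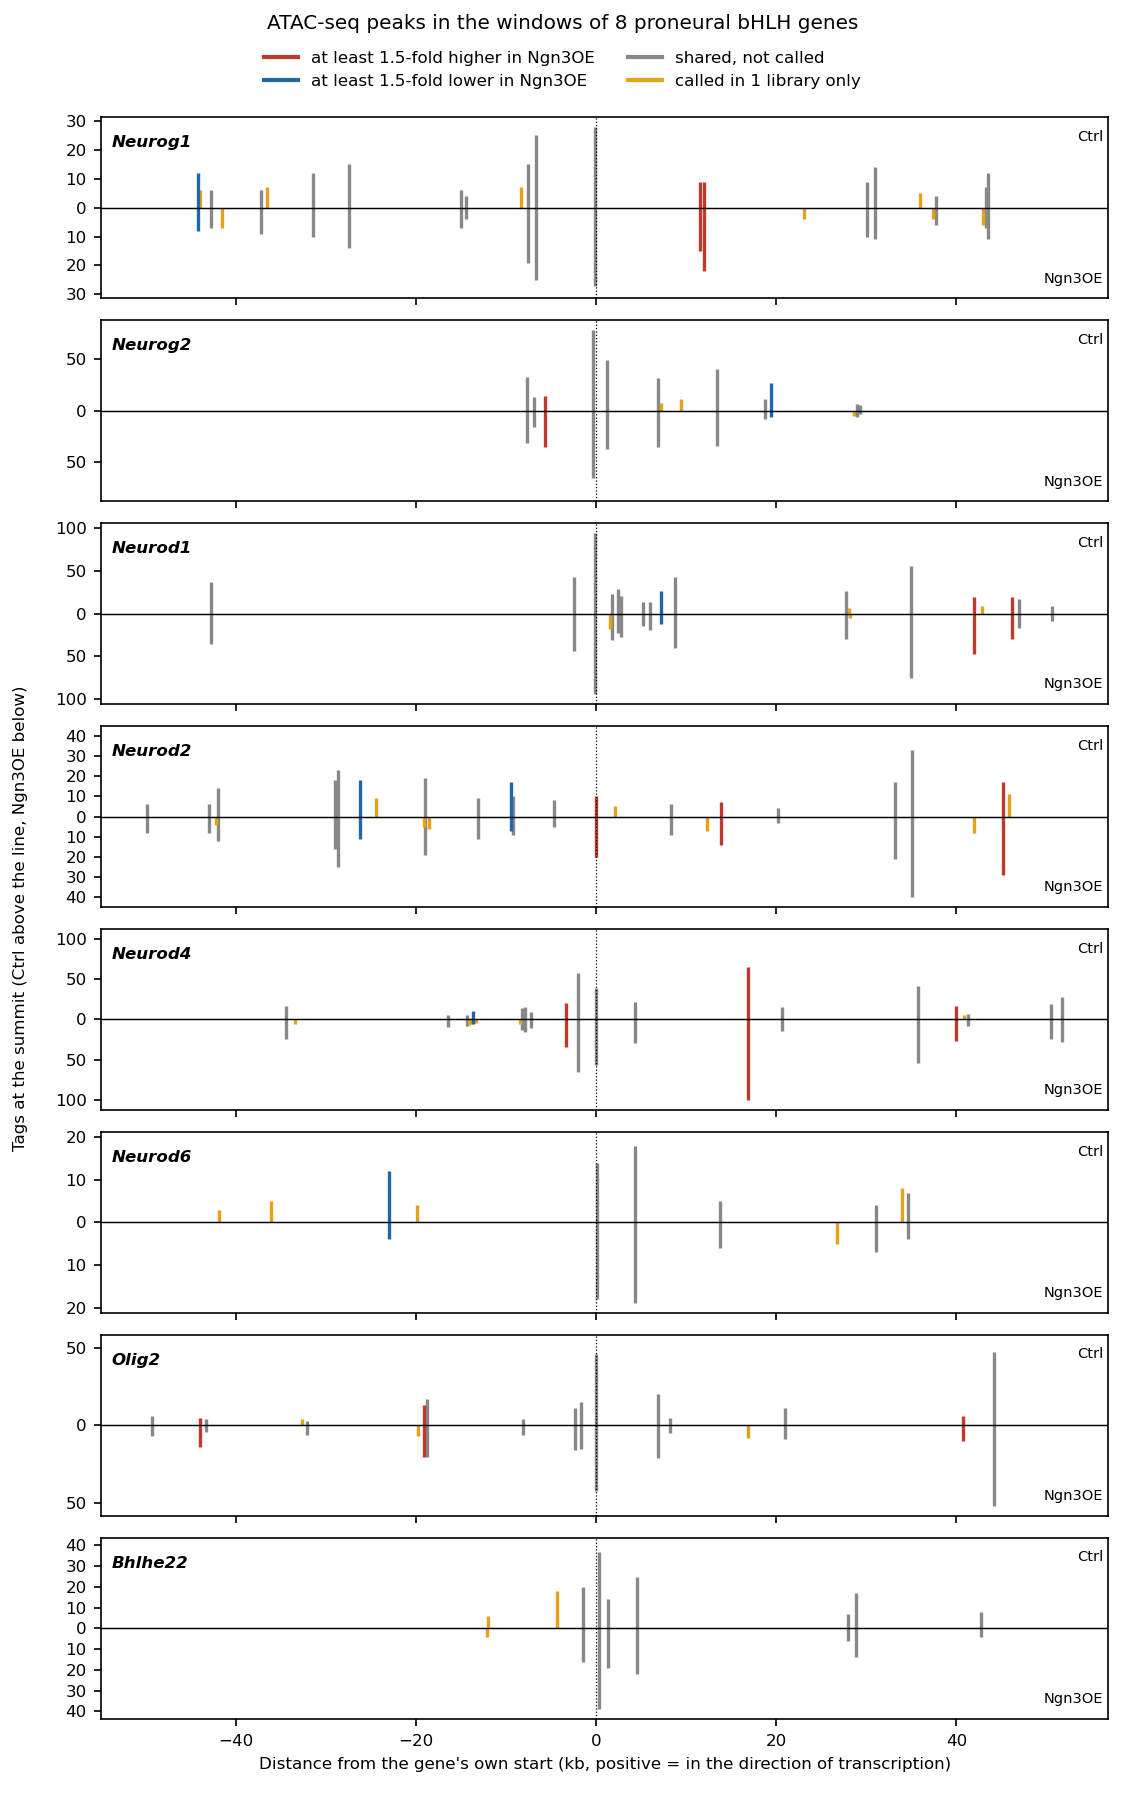
Tags at the summit of each peak against its distance from the gene's own start in kb, one panel per gene, with control above the line and Ngn3OE below and the tag axis set for each gene. Red lines are the 14 shared peaks called higher in Ngn3OE, blue lines the 7 called lower, grey lines the other shared peaks and yellow lines the peaks found in 1 library only; the tallest control lines are at the starts of Neurod1 and Neurog2, and the tallest Ngn3OE line, of 100 tags, is 16.9 kb downstream of the Neurod4 start.

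Among the 108 shared pairs, 14 had at least 1.5-fold more tags in Ngn3-OE, or 13.0%, beside 14.6% of all 91741 shared peaks. Another 7 had at least 1.5-fold fewer, or 6.48%, beside 9.17% of all. The share of called peaks at these loci was thus near the background in both directions. In 27 pairs both libraries had fewer than 10 tags, so that no call was possible, and of the 81 others 17.3% were higher and 8.64% lower, beside 21.1% and 13.2% of all shared peaks with 10 tags. Without scaling, 59 of the 108 pairs had more tags in Ngn3-OE, 36 fewer and 13 as many. The counts per gene below are likewise unscaled, and such counts over all shared peaks are not given. The median ratio over the 108 pairs was 0.11 on the log2 scale and that over all shared peaks 0.09. When tags were scaled by this overall median, 9 of the 108 pairs were called higher and 7 lower. Over all shared peaks 10.5% were then called higher and 10.7% lower. As a share of the calls at these loci, and not of the pairs, higher calls went from 66.7% to 56.2%. The median log2 ratio of the 108 pairs was 0.02 after scaling.

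Most peaks of the 8 loci lay away from gene starts, and so did the called ones. Of the 14 higher peaks, 1 was at the gene's own promoter, 1 at the promoter of another gene and 12 elsewhere, and the 7 lower peaks included 2 at promoters of other genes and 5 elsewhere. Thus 17 of the 21 called peaks were elsewhere and 3 at promoters of other genes. Of all 108 shared peaks 78 were elsewhere, 11 at promoters of other genes and 18 at an own promoter. The higher calls were spread over 6 genes, all but Neurod6 and Bhlhe22, and the lower calls over 6 genes, all but Olig2 and Bhlhe22. The interval of the ratio lay above 0 in 4 of the 108 pairs, beside 3.29% of all shared peaks, and below 0 in 2, beside 2.43% of all, so these counts too were near the background.

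**Figure D2:**
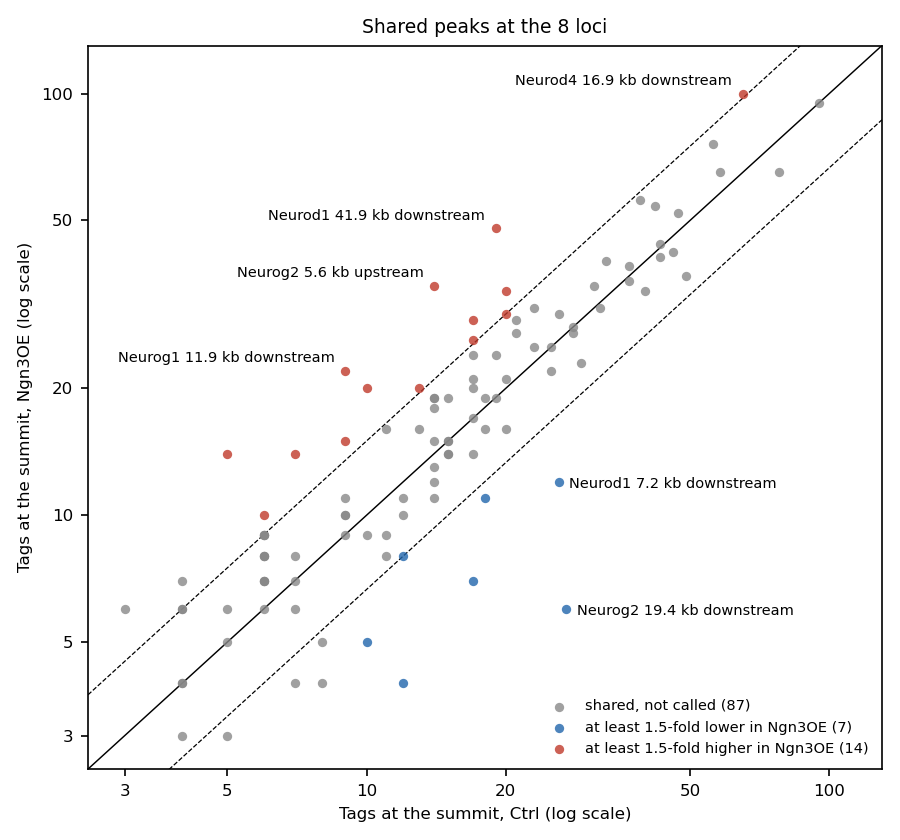
Tags at the summit in control (horizontal) and Ngn3OE (vertical), both on log scales, for the 108 shared peaks of the 8 loci, with lines at equal tags and at 1.5-fold. Points with the same tags lie on top of each other; the 14 red points are called higher, the 7 blue points lower, and the 6 named points are those whose counting interval leaves out equal tags.

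The neurogenins stand at the top of the proneural cascade. Neurog1 is best known from the sensory ganglia, and of the neurogenins Neurog2 is the one that retinal progenitors normally use. Neurog1 (ENSMUSG00000048904.5, chromosome 13 from 56250478 to 56252163, minus strand) had 21 peaks in each library, 17 of them shared. Its promoter peak, 194 bp upstream of the start, had 28 tags in control and 27 in Ngn3-OE, which is no difference at this depth. The tallest other peak in control, 6.69 kb upstream, had 25 tags in both. The 2 higher calls were neighbouring peaks in an intron of the noncoding gene 4930550C17Rik, and only 1 of them differed beyond its counting interval. The one 11.9 kb downstream of the Neurog1 start had 9 tags (4.12 to 17.1) in control and 22 (13.8 to 33.3) in Ngn3-OE, a log2 ratio of 1.29 (0.11 to 2.59). Its neighbour, 11.6 kb downstream, had 9 and 15 tags, a log2 ratio of 0.74 (−0.55 to 2.11). Both held GGATTA, and the latter also CATCTG. A further shared peak near the start of Cxcl14 was called lower. A control-only peak 36.6 kb upstream, over a UTR of Cxcl14, had 7 tags.

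At Neurog2 (ENSMUSG00000027967.8, chromosome 3 from 127633135 to 127635631, plus strand) the peaks with the most tags were near the gene itself. The promoter peak, 379 bp upstream, had 78 tags (61.7 to 97.3) in control and 65 (50.2 to 82.8) in Ngn3-OE, a log2 ratio of −0.26 (−0.76 to 0.23). A second peak over the coding exon had 49 and 37 tags, and the tallest control peak outside, 13.5 kb downstream, had 40 and 34. These 3 peaks had fewer tags in Ngn3-OE, each within its counting interval, while the peak 6.90 kb downstream had 31 and 35. In all, 7 of the 11 shared peaks of this locus had fewer tags in Ngn3-OE against 3 with more, beside 36 and 59 of the 108 pairs.

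Beyond these, Neurog2 had a called peak in each direction, and neither was within 3 kb of any gene start. The peak 5.64 kb upstream had 14 tags (7.65 to 23.5) in control and 35 (24.4 to 48.7) in Ngn3-OE, a log2 ratio of 1.32 (0.39 to 2.33), and moved from the 55.9th to the 87.6th percentile of its list by −log10 q. The peak 19.4 kb downstream went the other way, from 27 tags (17.8 to 39.3) in control to 6 (2.202 to 13.1) in Ngn3-OE. Its log2 ratio of −2.17 (−3.74 to −0.86) was the lowest of all shared pairs at the 8 loci, and this is the peak with the SOX site printed above. The higher peak upstream is the one with 2 copies of GGATTA.

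The NeuroD genes act downstream of the neurogenins. Neurod1, which photoreceptors need to survive, lies on chromosome 2 from 79452521 to 79456751 (ENSMUSG00000034701.9, minus strand) and had 18 peaks in each library, 16 of them shared. Its promoter peak had the most tags of the 8 genes, although in control that of Neurog2 was higher by −log10 q (78.0 against 75.5) and the interval of their tag ratio, a log2 ratio of 0.28 (−0.16 to 0.74), included equal tags. The peak 121 bp upstream had 95 tags in both libraries (76.9 to 116), a log2 ratio of 0.00 (−0.43 to 0.43). With 6 regions within 3 kb of its start, Neurod1 also had the most by this rule. Those from 1.51 to 2.77 kb downstream lay inside the gene, and each was nearer to a start of Gm26755. One of them, 1.51 kb downstream and named after its values were seen, was Ngn3-OE-only with 18 tags but a −log10 q of 1.80, near the limit of peak calling.

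The differences at Neurod1 lay in introns of Cerkl, a gene that overlaps the region downstream of it. The peak 41.9 kb downstream of the Neurod1 start had 19 tags (11.4 to 29.7) in control and 48 (35.4 to 63.6) in Ngn3-OE. Its log2 ratio of 1.34 (0.54 to 2.19) had the highest lower bound of all pairs at the 8 loci. Not far from it, 46.2 kb downstream, 20 tags in control and 30 in Ngn3-OE just met the call, with a log2 ratio of 0.58 (−0.28 to 1.48), and no longer did when scaled. The tallest peak of these introns, 34.9 kb downstream, had 56 and 76 tags, a log2 ratio of 0.44 (−0.08 to 0.97), and was not called. The peak 7.17 kb downstream was lower in Ngn3-OE, with 26 tags (17.0 to 38.1) against 12 (6.20 to 20.96) and a log2 ratio of −1.12 (−2.24 to −0.08). Thus the promoter had the same tags in both libraries, while 2 peaks of the window differed beyond counting error, in opposite directions.

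Neurod4, a factor of amacrine and bipolar cell genesis, lies on chromosome 10 from 130268152 to 130280240 (ENSMUSG00000048015.4, minus strand) and had 19 peaks in control and 23 in Ngn3-OE. Of its 18 shared peaks 13 had more tags in Ngn3-OE, 3 had fewer and 2 had as many, beside 59, 36 and 13 of the 108 pairs. The median log2 ratio of 0.35 was the highest of the 8 genes. The strongest promoter peak, 2.02 kb upstream, had 58 tags in control and 65 in Ngn3-OE, and the peak 53 bp upstream had 39 and 56, a log2 ratio of 0.52 (−0.09 to 1.15). Neither was called.

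In Ngn3-OE the tallest peak of the 8 loci was an intergenic one 16.9 kb downstream of the Neurod4 start, past the end of the gene. It had 65 tags (50.2 to 82.8) in control and 100 (81.4 to 122) in Ngn3-OE, a log2 ratio of 0.62 (0.16 to 1.09), and already stood at the 95.5th percentile of the control list, against the 98.5th in Ngn3-OE. In control the promoters of Neurod1 and Neurog2 were taller. Scaled by the overall median the Neurod4 peak fell short of the 1.5-fold call. A peak 3.33 kb upstream had 20 and 34 tags, a log2 ratio of 0.77 (−0.07 to 1.64). Another peak, 40.0 kb downstream, had 17 and 26 tags, a log2 ratio of 0.61 (−0.32 to 1.59), and was also lost on scaling. The single lower call, 13.7 kb upstream, had 10 tags in control and 5 in Ngn3-OE, a log2 ratio of −1.0 (−2.90 to 0.68).

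Neurod2 and Neurod6, genes of maturing neurons, had the least accessible promoters. Neurod2 (ENSMUSG00000038255.6, chromosome 11 from 98325415 to 98329648, minus strand) sits in a gene-rich stretch, and 9 of its regions were at the starts of other genes, among them Ppp1r1b and Stard3. Its promoter peak, 25 bp upstream, had 10 tags (4.80 to 18.4) in control and 20 (12.2 to 30.9) in Ngn3-OE. The log2 ratio was 1.00 (−0.16 to 2.26), and the peak moved from the 52.3rd to the 77.1st percentile of its list. This was the only own promoter of the 8 genes that was called, and its interval still includes no difference. It was also the only called peak with the neurogenin E-box consensus, or 7.14% of the 14 higher peaks beside 6.74% of all higher shared peaks, while 6 of the 87 peaks not called held it, 6.90% beside 3.78% of all.

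Around Neurod2 further peaks were called in both directions. The peak 13.8 kb downstream had 7 and 14 tags, a log2 ratio of 1.00 (−0.40 to 2.55), and the peak 9.51 kb upstream had 17 and 7, a log2 ratio of −1.28 (−2.79 to 0.06). The tallest peak of the window outside any promoter, 35.0 kb downstream, had 33 and 40 tags and was not called. At starts of other genes there were 1 more higher call, 1 more lower call and 1 strong one-library peak in each library. Within the gene a control-only peak over the coding exon, 2.07 kb downstream and named after its values were seen, had 5 tags.

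Neurod6 (ENSMUSG00000037984.9, chromosome 6 from 55677822 to 55681263, minus strand), which marks a small class of amacrine cells, had 10 peaks in control and 7 in Ngn3-OE, with no other coding gene in its window. Its promoter peak, 59 bp downstream of the start, had 14 tags (7.65 to 23.5) in control and 18 (10.7 to 28.4) in Ngn3-OE. The tallest other peak, 4.28 kb downstream, had 18 and 19. A peak 23.0 kb upstream had 12 tags in control and 4 in Ngn3-OE, a log2 ratio of −1.58 (−3.67 to 0.14). A control-only peak 33.9 kb downstream had 8 tags. In all 4 of its 10 control peaks had no counterpart, beside 21.7% of the whole list, and the other 3 rested on 3 to 5 tags.

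The remaining genes belong to the Olig branch of the family. Olig2 (ENSMUSG00000039830.9, chromosome 16 from 91225457 to 91228677, plus strand) had 16 peaks in control and 17 in Ngn3-OE, and no lower call. Its promoter peak, 80 bp upstream, had 46 tags (33.7 to 61.4) in control and 42 (30.3 to 56.8) in Ngn3-OE. The tallest peak away from any gene start, 6.81 kb downstream, had 20 and 21. The peak of the window with the most tags, 47 in control and 52 in Ngn3-OE, was at the start of Olig1, its neighbour. The 3 higher calls at Olig2 rested on few tags. The peak 44.0 kb upstream had 5 tags (1.62 to 11.7) in control and 14 (7.65 to 23.5) in Ngn3-OE. Its log2 ratio of 1.49 (−0.07 to 3.31) was the highest among the called peaks, yet the interval includes 0. The peaks 19.1 kb upstream, with 13 and 20 tags, and 40.7 kb downstream, with 6 and 10, were both lost on scaling. An Ngn3-OE-only peak 16.8 kb downstream had 8 tags and held CATCTG.

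Bhlhe22 (ENSMUSG00000025128.7, chromosome 3 from 18054174 to 18057517, plus strand) had 9 peaks in control and 8 in Ngn3-OE, and of its 7 shared peaks 5 had fewer tags in Ngn3-OE and 2 had more, none of them called. The strongest promoter peak, 326 bp downstream of the start, had 37 tags in control and 39 in Ngn3-OE. The other peak with the highest −log10 q, 28.8 kb downstream in an intron of Cyp7b1, had 17 and 14, and the shared one with the most tags, 4.52 kb downstream, had 25 and 22. Upstream of the gene were 2 strong control-only peaks. The one 4.41 kb upstream had 18 tags (10.7 to 28.4) and a −log10 q of 9.12, the most tags of any control-only peak at the 8 loci, and the one 11.97 kb upstream had 6 tags. Right beside the latter, 12.1 kb upstream, lay an Ngn3-OE-only peak of 4 tags.

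Set side by side, the own promoters kept their order from one library to the other with small exceptions. In control the tags fell from Neurod1 (95) through Neurog2 (78), Neurod4 (58), Olig2 (46), Bhlhe22 (37), Neurog1 (28) and Neurod6 (14) to Neurod2 (10). Between neighbours in this order only Neurog1 and Neurod6 differed beyond counting error, with a log2 ratio of 1.00 (0.03 to 2.04). In Ngn3-OE the tags were 95 for Neurod1, 65 for Neurod4 and Neurog2, 42 for Olig2, 39 for Bhlhe22, 27 for Neurog1, 20 for Neurod2 and 18 for Neurod6. There Neurod1 stood above Neurod4, with a log2 ratio of 0.55 (0.08 to 1.03), and Neurog2 above Olig2, with 0.63 (0.05 to 1.23). The median strongest promoter peak over all genes that had one was 42 tags in both libraries, so that the 3 genes from Neurod1 to Neurod4 were above it in both and the 4 from Bhlhe22 to Neurod2 below it. Neurod2 went from the 10.5th to the 25.2nd percentile of gene promoters.

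**Figure D3:**
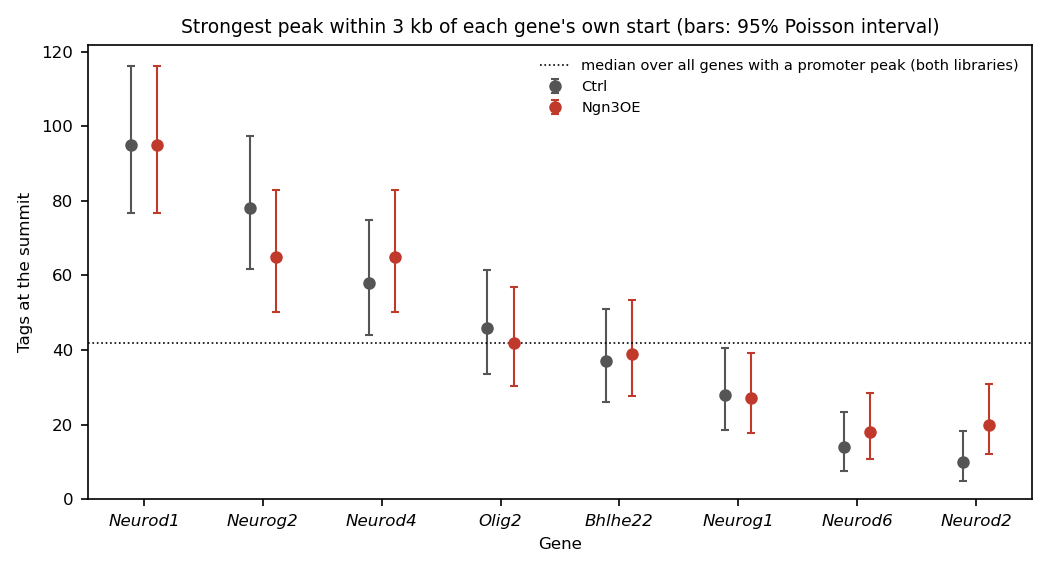
Tags at the summit of the strongest peak within 3 kb of each gene's own start in control (grey) and Ngn3OE (red), with 95% Poisson intervals, ordered by control. The dotted line is the median over all genes, 42 tags; the intervals of the libraries overlap for each of the 8 genes, and Neurod2, with 10 and 20 tags, has the largest relative difference.

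Motifs were counted within 100 bp of the summits on both strands. CATCTG, the core of the site that neurogenins and NeuroD factors bind, was found at 27.6% of control peaks of the 8 loci (20.5 to 35.9), beside 21.3% of all control peaks, and at 31.8% of their Ngn3-OE peaks (24.4 to 40.2), beside 22.6% of all. The longer neurogenin consensus, which contains CATCTG, was at 5.51% and 4.65%, beside 3.65% and 4.27%. The other E-box CAGCTG was at 15.7% and 18.6%, beside 20.1% and 19.9%. SOX sites were at 6.30% and 6.98%, beside 8.80% and 7.41%, and GGATTA at 19.7% (13.7 to 27.4) and 20.2% (14.1 to 27.9), beside 13.9% and 16.5%. The core TGGGAA of RBPJ, the DNA-binding partner of Notch, was at 20.5% and 21.7%, beside 18.0% and 17.7%, and the Hes site CACGCG at 3.15% and 3.88%, beside 4.20% and 4.05%. Neighbouring peaks are not independent, and a match is a description of the letters only.

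Among the called peaks CATCTG did not go with one direction. It was at 4 of the 14 higher peaks, 28.6% (11.7 to 54.6), beside 27.0% of all higher shared peaks, and at 4 of the 7 lower ones, 57.1% (25.05 to 84.2), beside 18.4% of all lower shared peaks. The lower peaks with it were at Neurod1, Neurod6 and Neurod2, the last with 2. Of one-library peaks it was at 0 of 19 control-only (up to 16.8%) and 7 of 21 Ngn3-OE-only, 33.3% (17.2 to 54.6), beside 20.1% and 25.3% of all such peaks. SOX sites were at 1 of 14 higher and 1 of 7 lower peaks, beside 6.13% and 17.4% of all.

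Among the called peaks the counts of GGATTA were larger for those higher in Ngn3-OE. As the motif came from an earlier result on these libraries, its counts here are no independent support of that. It was at 8 of the 14 higher peaks, 57.1% (32.6 to 78.6), at 15 of the 87 not called, 17.2% (10.7 to 26.5), and at 0 of the 7 lower ones (up to 35.4%). Over all shared peaks the shares were 26.3% of the higher, 13.9% of those not called and 6.06% of the lower. The 8 peaks were 2 at Neurog1, 1 at Neurog2, 2 at Neurod1, 1 at Neurod2 and 2 at Neurod4, all away from gene starts, and the 3 higher peaks at Olig2 had none. The intervals of the higher and lower peaks overlap. With the scaled tags 5 of the 9 higher peaks held it. Of one-library peaks, GGATTA was at 3 of 21 Ngn3-OE-only, 14.3% (4.98 to 34.6), beside 19.95% of all such peaks, and at 2 of 19 control-only, 10.5% (2.94 to 31.4), beside 9.89% of all. OTX2 and CRX, which bind this core, are the homeodomain factors of photoreceptor and bipolar cells.

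**Figure D4:**
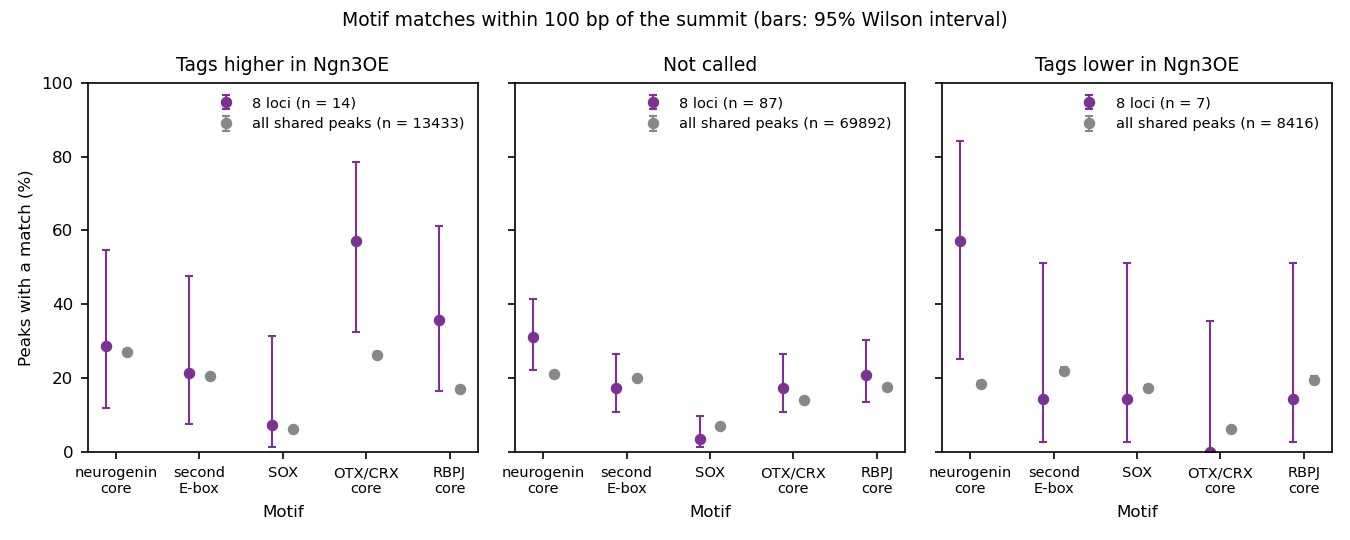
Percentage of shared peaks with a motif match within 100 bp of the summit, for peaks higher in Ngn3OE, not called and lower, at the 8 loci (purple) and over all shared peaks (grey), with 95% Wilson intervals. The neurogenin core is CATCTG, the second E-box is CAGCTG, the OTX/CRX core is GGATTA and the RBPJ core is TGGGAA. The OTX/CRX core is at 57.1% of the 14 higher peaks of the 8 loci and at none of the 7 lower ones.

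The other genes of the pathway were counted with the same windows. At 9 further proneural or neurogenic bHLH genes, Atoh1, Atoh7, Ptf1a, Olig1, Olig3, Bhlhe23, Nhlh1, Nhlh2 and Neurog3, 12 of 88 shared peaks were higher in Ngn3-OE and 8 lower, or 13.6% and 9.09%, with a median log2 ratio of 0.00. Nhlh1, a gene of newly born neurons named after its values were seen, had 5 higher and 2 lower calls among 14. The E-protein partners Tcf3, Tcf4 and Tcf12 had 11 higher and 13 lower calls among 70, or 15.7% and 18.6%, with a median log2 ratio of 0.10. At Id1, Id2, Id3, Id4, Hes1, Hes5, Hes6 and the Hes relative Hey1, 10 of 84 shared peaks were higher and 11 lower, or 11.9% and 13.1%, with a median log2 ratio of 0.00. Most of these genes encode proteins that block proneural factors, whereas Hes6 is known to oppose Hes1. Beside these 3 lists stand the shares of 14.6% higher and 9.17% lower over all shared peaks. Of the 8 promoters of the Id, Hes and Hey genes 3 had more tags in Ngn3-OE and 5 had fewer. The strongest promoter peak of Hes5, a Notch target, had 56 tags in control and 31 in Ngn3-OE, and that of Id3 had 34 and 22, both named after their values were seen. The windows of Olig1 and Olig2 overlap, so those of their peaks that lie in both were counted at each.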

How the data were processed

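The deposited files were peak lists, 1 per library. Per the study's methods, reads were trimmed with Trimmomatic and aligned to mm10 with Bowtie2. The authors then removed duplicates (Picard 2.20.4), mitochondrial reads (SAMtools 1.6) and blacklisted regions (bedtools 2.30.0). Fragments of at most 120 bp were kept, which leaves out nucleosomal fragments, their ends were shifted for Tn5 (4 and 5 bp, deepTools 3.1.3), and peaks were called per library with MACS2 2.2.4 at a q of 0.05. The deposited values are a score, a fold enrichment, and the −log10 of the p-value and q-value.

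Here, lines with the same interval were merged, keeping the strongest summit. The fold enrichment and −log10 p were solved for tags at the summit and local background, which came out whole for 100% of peaks (largest residual of the −log10 p 0.000675 in control and 0.00191 in Ngn3-OE). The tag extension length is not given in the sources used here. Genes were GENCODE M21 basic models and sequences RefSeq GRCm38, the same build. Groups came from the sample titles. Named peaks were, per gene, the strongest promoter peak, the strongest other peak, and each peak called at 1.5-fold or found in 1 library with a −log10 q of at least 5, those within 3 kb of the start of another gene being counted only. The members, lists and motifs were chosen with earlier results of these data known, and 1 gene of each of 2 comparison lists is not reported here. Only 2 steps were tested on simulated data: the solving of tags, with values made by the same formula, and the overlap of 1 bp. Python 3.11.15, pandas 2.3.3 and scipy 1.17.1 were used.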

Additional observations from a re-analysis of the deposited data

How the results depend on the processing

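With 1 library per group no replicate could be left out. No paired analysis was possible because each group has a single library and the result comes from no test. A flank of 10 kb gave 51 control and 49 Ngn3-OE peaks and raised the shared part of the Ngn3-OE peaks to 93.9%, and a flank of 100 kb gave 204 and 197 peaks. With only those peaks of the queried list whose −log10 q reached 5, 94.2% of control and 97.8% of Ngn3-OE peaks were shared and 5 and 2 one-library peaks were counted. Dividing tags by the median ratio over all shared peaks left 9 higher calls, and a 2-fold limit, chosen after seeing the data, left 6, with 5 lower calls beside them, against 5.50% and 4.22% of all shared peaks. With 250 bp on each side of the summit CATCTG was at 44.9% of control and 48.1% of Ngn3-OE peaks, beside 36.9% and 38.2% of all. The SOX site was then at 14.96% and 14.0%, beside 18.0% and 16.9%. GGATTA, which is not counted among the main results, was at 29.9% and 28.7%, beside 21.8% and 24.0%. A wider window holds more matches by construction. With 50 bp CATCTG was at 20.2% of Ngn3-OE peaks, beside 14.4% of all. The median log2 ratio of the shared pairs, 0.11, became 0.02 when tags were divided by the median ratio, 0.08 without promoters of other genes and 0.13 when tags were divided by the lowest background. With these, 37 recounts of the main results kept a count within 1.5 times, a share within its 95% interval or a median within the interquartile range of the pairs. Peaks of few tags limit the comparison: 27 of 108 shared pairs had fewer than 10 tags in both libraries, the weakest peaks rested on 3 tags, and for such peaks the lack of a counterpart does not show closed chromatin.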
